A study of Mus musculus with 12 samples.

Results

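Antagonists of bone morphogenetic proteins (BMP) and activins were followed across mouse stromal cells cultured from 3 tissues. The antagonists were taken as all array probes annotated to Grem1, Fst, Fstl3, Chrd, Chrdl1, Nog, Nbl1, Bambi and Twsg1, which are 9 of the 18889 genes named on the array and 12 of its 45281 entries, under 10 probe identifiers. Expression was measured on single-colour Illumina bead arrays in 12 cultures, which the series calls biological replicates. The heart group held 4 cardiac-derived cells and the kidney group 4 kidney-derived cells, both labelled as resembling bone marrow mesenchymal stem cells (MSC). The bone marrow group held 4 classical MSC, adherent stromal cells with bone, fat and cartilage potential. No genotype, allele or agent is labelled for any group, and the sources used here do not state strain, age, passage or whether animals were pooled. Of the 9, Bambi encodes a membrane pseudoreceptor, so the name secreted antagonist covers the other 8 only.

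BMPs and activins are secreted dimers of the TGF-beta family that assemble type I and type II receptors, which phosphorylate SMAD proteins. Secreted antagonists bind the ligand outside the cell and keep it from its receptors. Gremlin (Grem1) and DAN (Nbl1) are cystine-knot proteins of the DAN family. Chordin (Chrd), chordin-like protein (Chrdl1) and noggin (Nog) also trap BMPs, while twisted gastrulation (Twsg1) joins chordin and BMP in 1 complex and can help or hinder signalling. Follistatin (Fst) and its relative (Fstl3) bind activins with high affinity. In bone marrow stroma, BMPs are known for driving bone formation, which noggin and gremlin restrain.

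The antagonists differed by tissue and not in 1 direction. In heart cells Grem1, Fst, Chrd and Nbl1 were higher than in bone marrow MSC, by 13.1-fold, 13.5-fold, 5.92-fold and 3.43-fold, and Fstl3 was lower. In kidney cells Fst and Nbl1 were higher than in bone marrow MSC by 3.00-fold and 2.64-fold, while Grem1 and Twsg1 were modestly lower. In all, 6 genes gave a detected signal on all 12 arrays, and all 6 differed between tissues by limma's F test, against 68.3% of all 10797 genes tested. For Twsg1 this holds for the brighter of its 2 entries, the other being undetected. Chrdl1, Nog and Bambi were detected on 0 arrays.

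**Figure D1:**
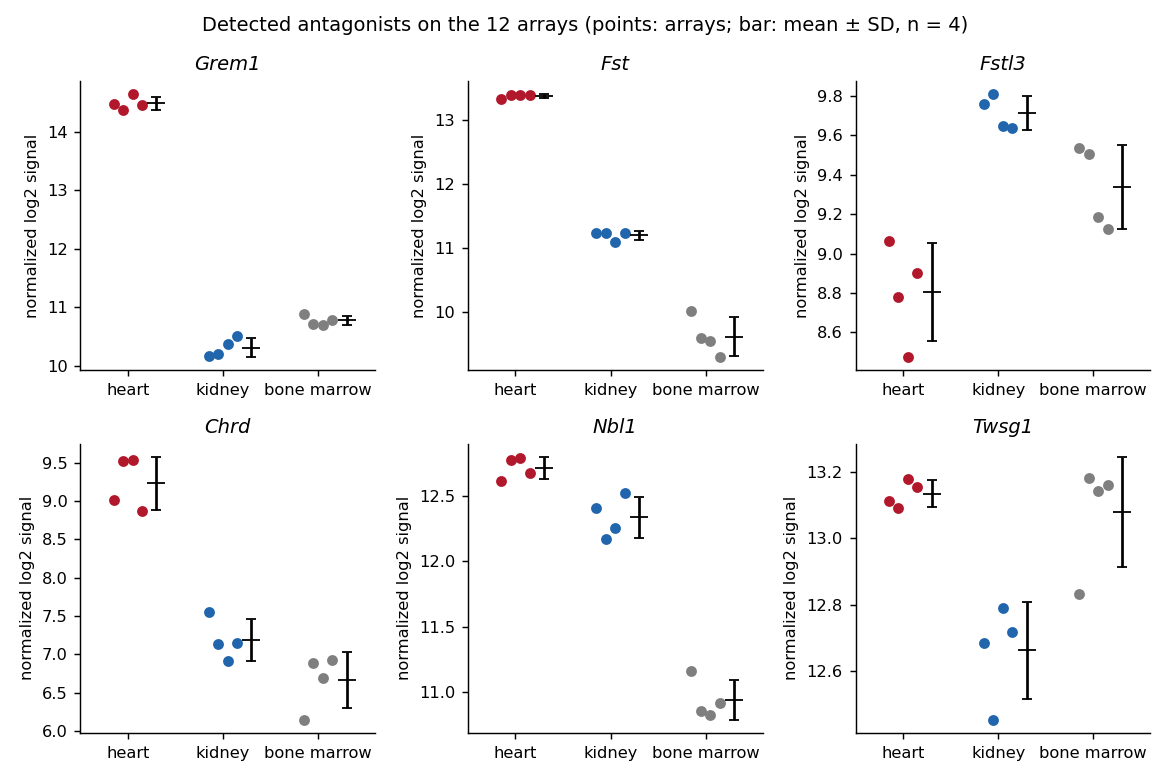
Normalized log2 signal of the 6 detected antagonists, 1 panel each with its own y axis, in heart, kidney and bone marrow cells; points are arrays and bars are the mean ± SD (n = 4). Grem1, Fst, Chrd and Nbl1 lie highest in heart cells, and Fstl3 lies highest in kidney cells.

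Each difference is a log2 fold change ± SE fitted with limma (n = 4 arrays in each tissue), and its two-sided p was adjusted by Benjamini-Hochberg over all 10797 genes. A gene passed where the adjusted p was under 0.05. Signals are given as normalized log2 values, so that 1 unit is a 2-fold difference. Levels of different genes are not set against each other, since each probe has its own scale. In RNA from a whole culture, fewer cells expressing a gene and less RNA per cell cannot be told apart. Nothing labels the replicates as separate animals, and p-values therefore reflect only how these cultures vary, which may be partly technical.

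Between 18635 and 19792 of 45281 entries were detected per array, and the number of arrays limits the precision. Bone marrow replicate 1 stood apart. Its mean raw signal was 754, against 874 to 1066 on the other 11 arrays, and its root mean square deviation from its tissue mean was 0.296, against 0.164 to 0.208. For the antagonists, values without it are given where they differ in call. For single pathway genes only values with all 12 arrays are given. All 10 MSC surface genes on the array were detected in every heart culture, 9 in every kidney culture and 9 in every bone marrow culture. The exception, Nt5e (CD73), was detected on 4 heart, 1 kidney and 0 bone marrow arrays. Markers of other cell types were mixed. The leukocyte genes Ptprc and Itgam, the endothelial genes Kdr and Vwf, the epithelial genes Epcam and Krt18 and the cardiomyocyte genes Myh6 and Actc1 were detected on 0 arrays. From the same lists, the blood cell genes Csf1r, Cd14, Lyz2 and Cd3e and the epithelial genes Krt8 and Slc12a1 were detected on all 12. The epithelial gene Cdh1 was detected on 3 heart, 4 kidney and 4 bone marrow arrays, and the cardiomyocyte gene Myh7 on 2, 3 and 0.

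Grem1 and Nbl1 were the antagonists of the DAN family. Grem1 (probe ILMN_1228522) had log2 signals of 14.47, 14.38, 14.64 and 14.45 on the heart arrays. The kidney arrays gave 10.16, 10.20, 10.38 and 10.51, and the bone marrow arrays 10.89, 10.72, 10.71 and 10.79. The heart arrays lay far above both other tissues, kidney lay just below bone marrow, and no pair of tissues overlapped. Before normalization kidney (raw 1345 to 1685) and bone marrow (1381 to 1901) did overlap. In heart minus bone marrow Grem1 rose by 3.71 ± 0.08 (adjusted p = 2.6e-17), or 13.1-fold with a 95% interval of 11.6 to 14.8. It was the 72nd largest rise of the 10797 genes. In kidney minus bone marrow it fell by a small amount, -0.46 ± 0.08 (adjusted p = 0.000165). In kidney minus heart it fell by 4.18 (SE 0.08, adjusted p = 3.48e-18), making it 18.1-fold lower in kidney cells and the 28th largest fall of all genes.

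Nbl1 was read by 2 probes with different identifiers. On the brighter one (ILMN_2886618) log2 signals were 12.61, 12.78, 12.79 and 12.68 in heart cells, 12.41, 12.17, 12.26 and 12.52 in kidney cells, and 11.16, 10.86, 10.83 and 10.92 in bone marrow MSC. Heart and kidney cells both lay more than 1 unit above bone marrow MSC, with heart slightly above kidney and no overlap. Nbl1 rose by 1.78 ± 0.09 in heart minus bone marrow (adjusted p = 1.37e-12) and by 1.40 ± 0.09 in kidney minus bone marrow (adjusted p = 1.06e-10). The kidney minus heart difference was -0.38 ± 0.09 (adjusted p = 0.00138). The dimmer probe (ILMN_2777478) read 9.22, 9.31, 9.43 and 9.09 in heart cells, 8.84, 8.84, 8.91 and 9.31 in kidney cells, and 8.04, 7.63, 7.96 and 7.78 in bone marrow MSC. Here heart and kidney overlapped, both above bone marrow. Its differences were 1.41 and 1.12 for the first 2 comparisons, with adjusted p-values over all 20649 kept probes of 8.39e-09 and 4.57e-07 by limma, where 51.6% and 39.2% of those probes passed. Its kidney minus heart difference of -0.29 ± 0.13 did not pass (adjusted p = 0.0752), where 43.8% did, so the order of heart over kidney rests on the brighter probe.

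Chrd was the detected member of the chordin family. Its probe (ILMN_2765047) gave 9.01, 9.52, 9.53 and 8.87 in heart cells, 7.56, 7.13, 6.91 and 7.15 in kidney cells, and 6.15, 6.89, 6.70 and 6.93 in bone marrow MSC. The heart arrays stood clear of both other tissues, whereas kidney and bone marrow overlapped. Chrd rose by 2.57 ± 0.19 in heart minus bone marrow (adjusted p = 6.92e-10). It rose by 1.74 without background correction, and its raw intensity in bone marrow MSC was 152.9 to 229.8. The kidney minus heart difference was -2.04 ± 0.19 (adjusted p = 2.67e-08). The kidney minus bone marrow difference of 0.52 ± 0.19 passed narrowly (adjusted p = 0.0321). It lost its call without bone marrow replicate 1 (0.35, adjusted p = 0.0935), bone marrow replicate 3 (0.53, adjusted p = 0.0501), kidney replicate 1 (0.40, adjusted p = 0.119) or kidney replicate 4 (0.53, adjusted p = 0.0552), without background correction (0.27, adjusted p = 0.0809), without the detection filter (adjusted p = 0.0721), and without a trend in the variance (adjusted p = 0.0551).

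Twsg1, the chordin and BMP cofactor, was read by 2 entries under 1 identifier (ILMN_2463979). The raw table lists 6798 identifiers more than once, and the entries of 1 identifier can differ widely. For Twsg1 the first entry had raw intensities of 99.2 to 113.9 and was detected on 0 arrays, and the second had 5378 to 10512 and was detected on all 12. The authors' deposited processed table carries 1 value per identifier, which is the dim one for Twsg1, at 6.8 to 8.5. On the bright entry log2 signals were 13.11, 13.09, 13.18 and 13.16 in heart cells, 12.69, 12.45, 12.79 and 12.72 in kidney cells, and 12.83, 13.18, 13.14 and 13.16 in bone marrow MSC. Heart and bone marrow overlapped, and every kidney array lay below both, though kidney replicate 3 (12.79) lay close to bone marrow replicate 1 (12.83). Before normalization kidney (raw 5963.9 to 7938.5) and bone marrow (5378.3 to 8957.5) did overlap. The heart minus bone marrow difference was 0.06 ± 0.08, with a 95% interval of -0.12 to 0.23 (adjusted p = 0.607). In kidney cells the entry was lower than in bone marrow MSC by -0.42 ± 0.08 (adjusted p = 0.000427) and lower than in heart cells by -0.47 ± 0.08 (adjusted p = 9.49e-05). Which of the entries the identifier describes is not given in the sources used here, so these Twsg1 values hold for the bright entry alone.

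Fst and Fstl3, the activin binders, ran in different orders. Fst (ILMN_1228958) gave 13.33, 13.39, 13.40 and 13.39 in heart cells, 11.24, 11.24, 11.10 and 11.24 in kidney cells, and 10.03, 9.60, 9.55 and 9.30 in bone marrow MSC. The order was heart, kidney, bone marrow with wide gaps, and the bone marrow arrays were the most spread, replicate 1 being the highest. Fst rose by 3.75 ± 0.11 in heart minus bone marrow (adjusted p = 3.39e-16), 13.5-fold with a 95% interval of 11.6 to 15.8. It rose by 1.58 ± 0.11 in kidney minus bone marrow (adjusted p = 2.87e-10). In kidney minus heart it was lower by -2.17 ± 0.11 (adjusted p = 1.97e-12), or 4.5-fold lower in kidney cells. Without bone marrow replicate 1 the rises over bone marrow were 3.88 and 1.72.

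Fstl3 (ILMN_2636738) gave 9.06, 8.78, 8.47 and 8.90 in heart cells, 9.76, 9.81, 9.65 and 9.64 in kidney cells, and 9.53, 9.51, 9.18 and 9.12 in bone marrow MSC. Kidney cells were highest and heart cells lowest, with no overlap, though bone marrow replicate 4 lay close to heart replicate 1. Before normalization heart (raw 489 to 668) and bone marrow (597 to 804) did overlap. Fstl3 was lower in heart minus bone marrow (-0.53 ± 0.12, adjusted p = 0.00115) and higher in kidney minus heart (0.91 ± 0.12, adjusted p = 4.92e-06). The kidney minus bone marrow rise of 0.38 ± 0.12 passed (adjusted p = 0.0196) but not without kidney replicate 2 (0.34, adjusted p = 0.0564), bone marrow replicate 3 (0.32, adjusted p = 0.0629) or bone marrow replicate 4 (0.30, adjusted p = 0.0666).

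The remaining antagonists gave no detected signal. Nog, the BMP trap noggin, had raw intensities of 92.2 to 123.3. Chrdl1 had 84.3 to 131.2 over its 2 entries, which share an identifier. Bambi, a decoy receptor that lacks a kinase domain, had 100.6 to 153.7, with its highest value on kidney replicate 2. The lowest raw intensity of any detected entry on an array was 140.6 to 163.9. A probe that does not exceed background gives only an upper bound, so no fold change was computed for these 3 genes and no absence was shown.

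**Figure D2:**
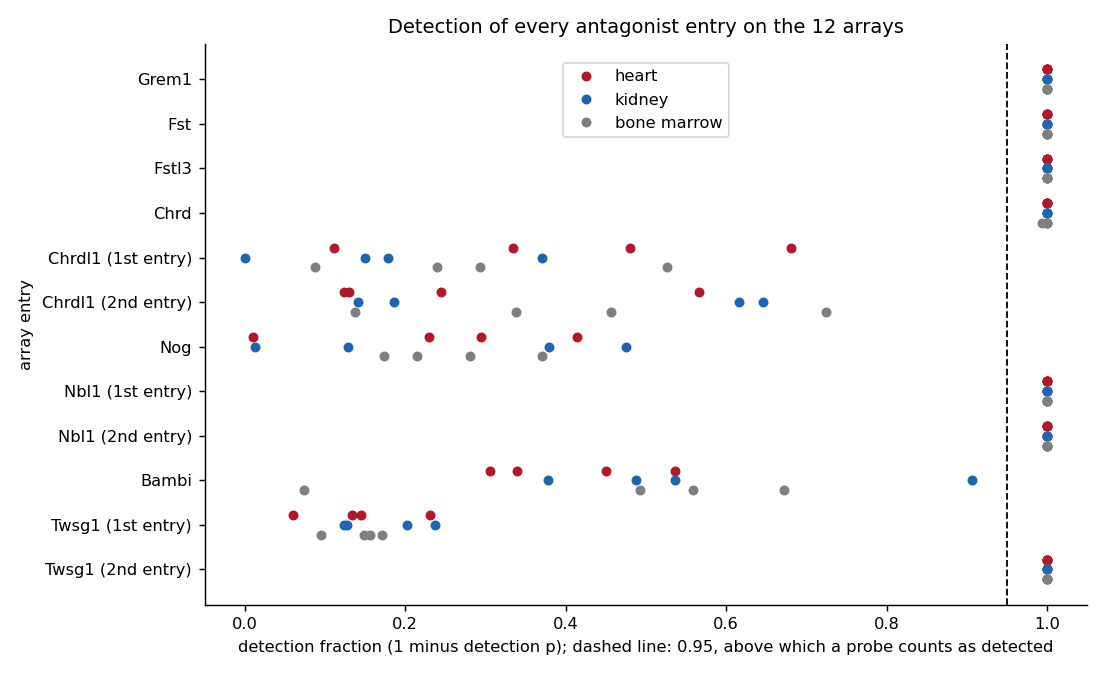
Detection fraction of all 12 antagonist entries (rows) on the heart, kidney and bone marrow arrays, with a dashed line at 0.95, above which an entry counts as detected. The 2 Nbl1 entries have separate identifiers, while those of Chrdl1 and of Twsg1 share 1 each; 7 entries lie past the line on all 12 arrays and 5 on none, Bambi coming nearest at 0.907 on kidney replicate 2.

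The counts of antagonists were read against those of all genes. In heart minus bone marrow 5 of the 6 tested antagonists passed, 4 higher and 1 lower, where 56% of all genes passed, 26.4% higher and 29.6% lower. With a change of at least 2-fold there were 4, all higher, against 8.41% of genes higher by that much and 14% in either direction. In kidney minus bone marrow 6 of 6 passed, 4 higher and 2 lower, against 44.2% of genes, 19.9% higher and 24.3% lower. Only 2 of them, Fst and Nbl1, reached 2-fold, against 4.9% of genes higher by that much and 8.46% in either direction. In kidney minus heart 6 of 6 passed, 1 higher (Fstl3) and 5 lower, against 49% of genes, 24.9% higher and 24.1% lower, and 3 reached 2-fold against 10.8%, all of them lower, against 6.96% of genes lower by that much. The median over the 6 was 2.17 in heart minus bone marrow, 0.45 in kidney minus bone marrow and -1.26 in kidney minus heart, beside -0.03, -0.04 and 0.02 over all genes. The arrays of the tissues did not overlap for 5 antagonists in heart minus bone marrow (50.2% of genes), 5 in kidney minus bone marrow (38%) and 6 in kidney minus heart (47%). For 4 of the 6 (Grem1, Fst, Fstl3 and Nbl1) no pair of tissues overlapped, against 15.4% of genes. Overlap was judged on normalized signals. These 6 had to be detected to be tested, and the antagonists were chosen with earlier results known, so the counts describe them and are not a test of the list. Twsg1 enters all of them by its bright entry. The first and second comparisons share the bone marrow arrays.

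**Figure D3:**
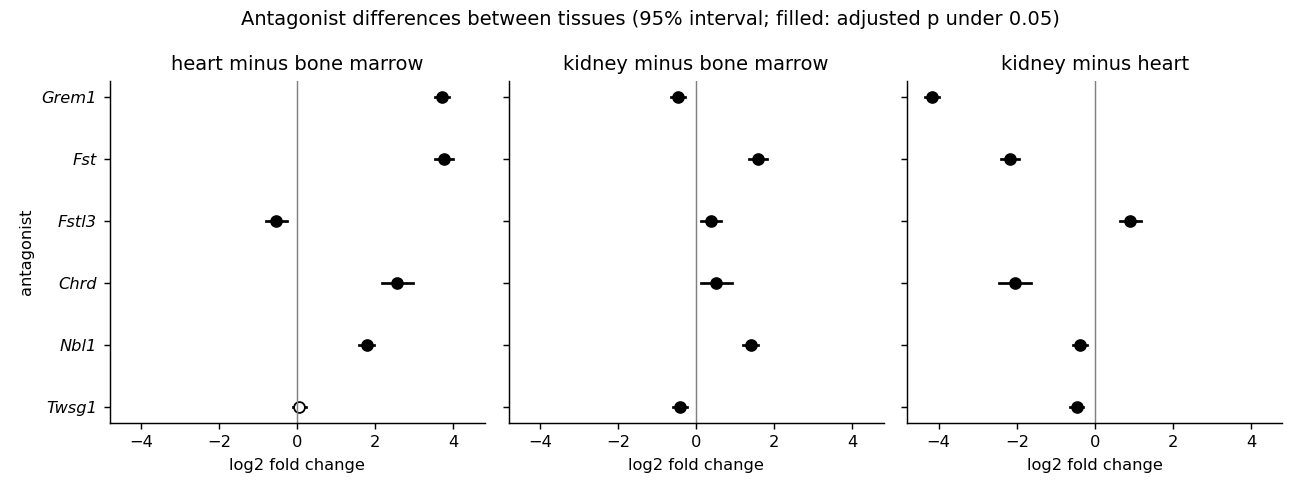
Log2 fold change of each detected antagonist (rows) for heart over bone marrow, kidney over bone marrow and kidney over heart, with 95% intervals from limma; filled points have an adjusted p under 0.05. Grem1 stands at 3.71, -0.46 and -4.18, and Twsg1 in heart minus bone marrow is the single open point.

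The bases before the start sites of Grem1, Nbl1, Chrd and Fstl3 are shown, because the first 3 were highest in heart cells and Fstl3 was lowest there. Windows of 250 bases were taken from RefSeq for 5 of the 9 genes (build GRCm38.p6), the fifth being Twsg1. No window was at hand for Fst, Nog and Chrdl1, and Bambi is not shown. Fst, the antagonist with the largest rise in heart minus bone marrow, could therefore not be read for these motifs. Capitals mark GGCGCC, a palindrome known as part of BMP-responsive elements. The Grem1 window is chr2:113758649-113758898, minus strand, that of Nbl1 is chr4:139092971-139093220, minus strand, that of Chrd is chr16:20732877-20733126, plus strand, and that of Fstl3 is chr10:79777024-79777273, plus strand.
Grem1: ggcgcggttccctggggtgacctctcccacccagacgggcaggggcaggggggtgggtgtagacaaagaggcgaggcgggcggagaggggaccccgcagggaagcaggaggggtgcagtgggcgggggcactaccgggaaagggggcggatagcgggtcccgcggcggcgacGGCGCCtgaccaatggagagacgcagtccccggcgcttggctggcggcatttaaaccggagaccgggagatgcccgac
Nbl1: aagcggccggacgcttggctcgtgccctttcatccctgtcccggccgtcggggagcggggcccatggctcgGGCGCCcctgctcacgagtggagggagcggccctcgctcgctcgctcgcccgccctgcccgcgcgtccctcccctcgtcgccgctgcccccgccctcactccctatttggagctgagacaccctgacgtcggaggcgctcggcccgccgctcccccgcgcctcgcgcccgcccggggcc
Chrd: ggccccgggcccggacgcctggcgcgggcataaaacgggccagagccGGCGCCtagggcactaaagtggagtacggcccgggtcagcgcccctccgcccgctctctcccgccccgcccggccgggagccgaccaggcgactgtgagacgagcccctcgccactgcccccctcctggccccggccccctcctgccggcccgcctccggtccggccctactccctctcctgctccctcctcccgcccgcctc
Fstl3: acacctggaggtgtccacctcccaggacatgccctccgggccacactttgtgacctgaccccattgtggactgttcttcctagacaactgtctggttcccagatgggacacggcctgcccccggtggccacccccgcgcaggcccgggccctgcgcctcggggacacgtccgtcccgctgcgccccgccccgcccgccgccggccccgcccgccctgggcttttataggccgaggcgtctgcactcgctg

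GGCGCC lay 78 bases before the start in Grem1, 179 in Nbl1 and 203 in Chrd, and was not in the windows of Fstl3 and Twsg1. Of all 32851 RefSeq promoter windows of this length 9.59% held it. The antagonist windows were rich in G and C, with 72% in Grem1, 77.6% in Nbl1, 78% in Chrd, 71.2% in Fstl3 and 64.4% in Twsg1, beside a median of 52.4%. Among the 3037 windows with at least 70% G and C the motif was in 38.5%. The other motifs were read on both strands. The SMAD box CAGAC was in Grem1, Fstl3 and Twsg1, in 42.2% of all windows and in 31.5% of those rich in G and C. A CCAAT box was in Grem1 alone of the 5, in 33.8% of all windows and in 20.6% of those rich in G and C. The TATA core TATAA was on the opposite strand of the Fstl3 window, 28 bases before the start, and of the Twsg1 window, 208 bases before it. It was in 22.8% of all windows and in 2.4% of those rich in G and C. No matches of these motifs overlapped in the 5 windows. The motifs were chosen after the expression values and the sequences had been seen, and a match describes letters, not binding.

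BMP and GDF ligand genes were compared next, without regard to which of them these antagonists bind. Beside the list counts that follow, 26.4% of all genes were higher and 29.6% lower in heart minus bone marrow. In kidney minus bone marrow these shares were 19.9% and 24.3%. Some genes stand in more than 1 list, among them Smad6, Skil and Inhba, so the lists are not independent. Of 17 BMP and GDF ligand genes with a probe, 7 were tested. In heart minus bone marrow Bmp3, Bmp4, Gdf1 and Gdf10 were higher and 0 were lower, and in kidney minus bone marrow Bmp4, Bmp8a and Gdf9 were higher and 0 were lower. Bmp3 and Gdf10 were detected on the 4 heart arrays alone and Bmp4 and Bmp8a on 0 bone marrow arrays, so these could only come out higher where they were detected, and the counts carry no weight as a direction of the list. Gdf1 and Gdf9 were detected on all 12 arrays. Bmp4, a main ligand of gremlin, chordin and noggin, was at 6.91, 6.74, 6.41 and 6.30 in heart cells, 8.52, 8.69, 8.72 and 8.82 in kidney cells, and 4.53, 4.57, 4.74 and 4.90 in bone marrow MSC, where it was detected on 0 arrays. Over bone marrow MSC the excess was therefore at least 1.90-fold in heart and at least 8.16-fold in kidney, each bound being set against the lowest detected signal of the array. In kidney minus heart Bmp4 rose by 2.10 ± 0.16 (adjusted p = 1.79e-09), where Grem1 fell by 4.18. Bmp3, which encodes a BMP family member that opposes bone formation, exceeded its bone marrow level by at least 2.53-fold in heart cells.

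Of 4 tested activin and TGF-beta ligand genes (9 with a probe), 3 were lower in heart cells than in bone marrow MSC and Tgfb3 was higher, while all 4 were higher in kidney cells (medians -0.52 and 1.38). Inhba, the subunit of activin A and the chief ligand of follistatin, had log2 signals of 12.15, 12.05, 12.04 and 12.37 in heart cells, 14.13, 14.03, 13.91 and 13.93 in kidney cells, and 13.10, 12.68, 12.59 and 12.63 in bone marrow MSC. Kidney arrays were highest and heart arrays lowest, with no overlap. Inhba was lower in heart minus bone marrow (-0.60 ± 0.10, adjusted p = 4.07e-05), where Fst rose by 3.75 and Fstl3 was at -0.53. In kidney minus bone marrow it rose by 1.25 ± 0.10 (adjusted p = 3.69e-09), and in kidney minus heart by 1.85 ± 0.10 (adjusted p = 8.56e-12), where Fst was at -2.17 and Fstl3 at 0.91. Tgfb2 rose by 2.06 ± 0.12 in kidney minus heart, and Tgfb3 by 0.88 ± 0.10.

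Other extracellular modulators of the family were higher in heart minus bone marrow for 8 of 19 tested genes and lower for 4 (median 0.08), and higher in kidney minus bone marrow for 5 and lower for 8 (median -0.06). Bmper, which encodes a BMP-binding protein related to chordin, averaged 13.02 ± 0.19 in heart cells, 12.16 ± 0.21 in kidney cells and 10.08 ± 0.25 in bone marrow MSC (SD, n = 4 each). Both organ-derived groups lay well above bone marrow, with rises of 2.94 ± 0.12 (adjusted p = 9.18e-14) and 2.09 ± 0.12 (adjusted p = 3.67e-11). Tll1, a tolloid-like protease of the kind that cleaves chordin, was detected on 0 bone marrow arrays, and its excess over bone marrow was at least 8.31-fold in heart cells and at least 3.41-fold in kidney cells. Kcp, a chordin-related gene, was lower in kidney minus bone marrow by -2.32 ± 0.17, but it was detected on only 2 of 4 kidney arrays, where its mean of 5.60 lay at the lowest detected signals (5.56 to 5.61), so the size of the fall is uncertain. Htra1, a secreted protease, was higher in kidney minus heart by 3.17 ± 0.08 (first of 2 entries under its identifier).

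Receptor and co-receptor genes were higher in heart minus bone marrow for 8 of 14 and lower for 2 (median 0.51), and higher in kidney minus bone marrow for 5 and lower for 3 (median 0.16). Bmpr1b, a type I BMP receptor, rose by 3.19 ± 0.14 in heart cells and 1.82 ± 0.14 in kidney cells, on the third of 4 entries under 1 identifier. Acvrl1, the type I receptor ALK1, exceeded its bone marrow level in heart cells by at least 5.0-fold. Tgfbr3, the co-receptor betaglycan, was lower in kidney minus heart (-3.53 ± 0.21) and lower in kidney minus bone marrow (-2.24 ± 0.21).

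Genes of the SMAD list, which also holds the regulators Smurf1, Ski and Skil, were higher for 4 of 7 and lower for 2 in heart minus bone marrow (median 0.51), with counts of 3 and 1 in kidney minus bone marrow (median 0.24). Of 12 tested genes known to be induced by BMP, Grem1 left out, 5 were higher and 4 lower in heart minus bone marrow (median 0.15), and 4 higher and 3 lower in kidney minus bone marrow (median 0.14). Id2, an inhibitor of basic helix-loop-helix factors, rose by 1.65 ± 0.14 in heart minus bone marrow (adjusted p = 2.7e-09). Smad6, an inhibitory SMAD, was lower there (-0.88 ± 0.13, adjusted p = 8.14e-06) and higher in kidney minus heart (1.42 ± 0.13, adjusted p = 1.69e-08). Sp7, an osteoblast transcription factor, was at least 4.76-fold lower in heart cells than in bone marrow MSC. Of 12 tested genes known to be induced by TGF-beta or activin, with Fst and Fstl3 left out, 4 were higher and 5 lower in heart minus bone marrow (median -0.02), and 8 higher and 2 lower in kidney minus bone marrow (median 0.32). Thbs1, encoding a matricellular activator of latent TGF-beta, rose by 2.58 ± 0.11 and 1.81 ± 0.11 in those comparisons, while Tgfbi was lower in both (-1.72 ± 0.14 and -3.08 ± 0.14).

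**Figure D4:**
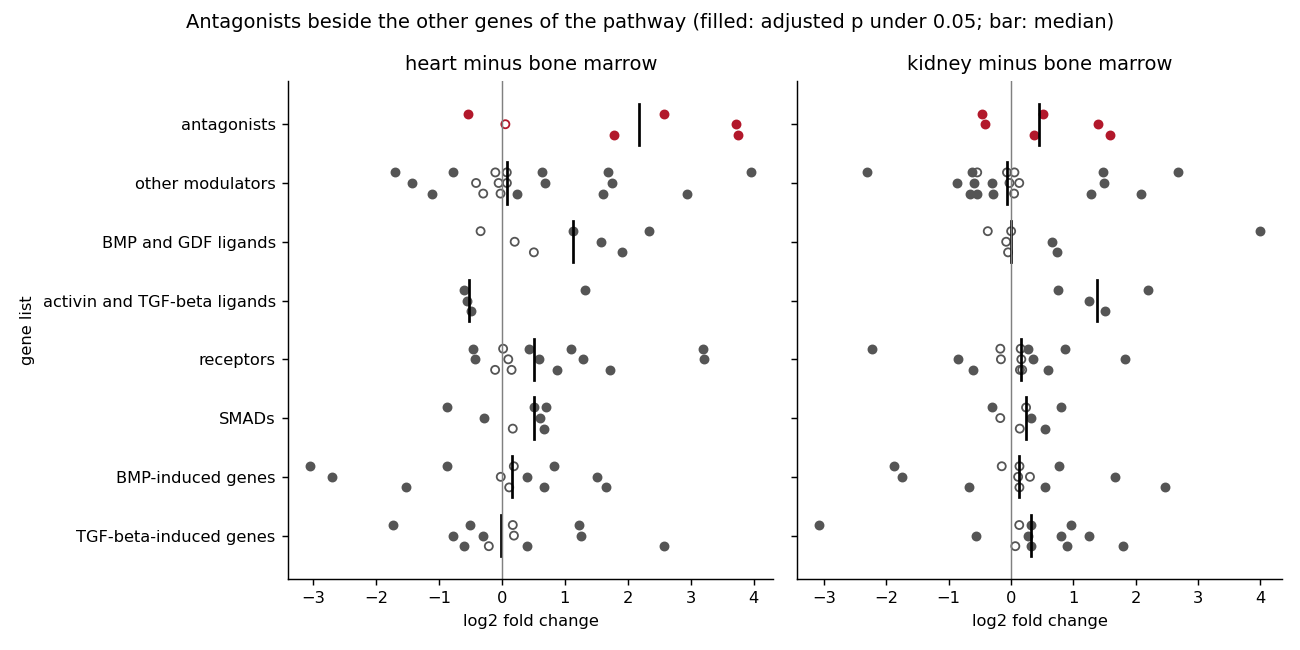
Log2 fold changes of the tested antagonists (red, top row) and of the other pathway lists (grey rows), in heart minus bone marrow and kidney minus bone marrow; filled points have an adjusted p under 0.05 and bars are list medians. The antagonist median is 2.17 in heart cells and 0.45 in kidney cells, and the activin and TGF-beta ligand median is -0.52 in heart cells and 1.38 in kidney cells.

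Genes whose pattern was nearest to each antagonist were taken by the smallest root mean square difference of centred log2 values over the 12 arrays, among genes past the F test. For Grem1 these were Adamtsl3, a matrix protein gene (0.179), and the cardiac progenitor factor gene Isl1 (0.225). Isl1 averaged 4.69 in kidney cells and 4.91 in bone marrow MSC. The lowest detected signals there were 5.56 to 5.61 and 5.64 to 5.69, so that part of the match is to background. Fst had Sdr39u1 (0.252) and Prxl2b (0.256), and Fstl3 had the actin-binding gene Tagln2 (0.103) and the kinase gene Stk39 (0.123). Prxl2b averaged 5.44 in bone marrow MSC, likewise under the lowest detected signals. Chrd had the sialyltransferase gene St3gal1 (0.246) and Prxl2a (0.252). Nbl1 had the adhesion receptor gene Pvr (0.128) and Crim1 (0.141), itself a BMP-binding membrane protein gene that rose by 1.68 ± 0.10 in heart cells and 1.5 ± 0.10 in kidney cells over bone marrow MSC. Twsg1 had Cfap97 (0.0854) and Stk36 (0.0984). Without bone marrow replicate 1, 5 of these 12 names stayed, namely Adamtsl3, Tagln2, Stk39, St3gal1 and Cfap97. Isl1 and Crim1 were among those that did not stay.

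Other gene lists moved with tissue beside the antagonists. The summed normalized signal of the bone, fat and cartilage genes (4 of 7 tested) was 5197 to 6317 in heart cells, 8900 to 9999 in kidney cells and 20009 to 25495 in bone marrow MSC, with Bglap undetected. That of the 10 MSC surface genes was 76626 to 81663 in heart cells, 34283 to 37626 in kidney cells and 33595 to 37106 in bone marrow MSC. The summed normalized signal of 15 tested smooth muscle genes (of 16 listed) was 160569 to 163892 in heart cells, 222481 to 236322 in kidney cells and 111937 to 116747 in bone marrow MSC, with Synpo2 undetected. That of 16 tested cell division genes (of 22 listed) was 28581 to 35843, 53902 to 58152 and 67456 to 75655, in the same order, with Ccnb2, Bub1 and Ccna2 undetected. That of 13 tested interferon response genes (of 18 listed) was 9800 to 12658, 13303 to 17733 and 21314 to 37736, with Ifit1 and Mx1 undetected. Such a sum follows its brightest probes. The mean log2 signal of the interferon list overlapped between heart (7.31 to 7.61) and kidney cells (7.33 to 7.50). In kidney minus heart 2 of its 13 genes were higher, 3 were lower and 8 did not pass. Blood cell and macrophage genes (5 of 13 tested) summed to 934 to 1091 in heart cells, 716 to 871 in kidney cells and 938 to 1110 in bone marrow MSC, with Adgre1, Tyrobp, Fcer1g and Kit also undetected. Endothelial genes (2 of 7 tested) summed to 69.8 to 107, 424 to 468 and 65.2 to 92.6, and Emcn was detected on all 4 kidney arrays and 0 others. Of these genes 0 were detected on all 4 heart or all 4 bone marrow arrays, so those sums are near background. Epithelial genes (3 of 10 tested) summed to 151 to 204, 224 to 281 and 242 to 333, and mesothelial genes (2 of 5 tested) to 140 to 240, 467 to 497 and 95 to 239. Among the mesothelial genes only 1, Krt19, was detected on all 4 bone marrow arrays. The part of these lists in the antagonist differences was not tested.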

How the data were processed

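A pair of deposited tables was used. The first holds, per the file headers, raw probe intensity without normalization and beside it a detection fraction; its header says p-value, but the deposited values grow with brightness, so 1 minus the fraction was taken as p. The second holds linear intensity that the authors processed; the submitters' processing notes name lumi without settings, and it served as an alternative. Per the labels, total RNA was amplified with an Illumina kit and carried a biotin label. Columns were matched to cultures by title.

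Intensities were processed with neqc in limma 3.58.1 (R 4.3.3, offset 16, log2). Entries detected (fraction above 0.95) on at least 4 arrays were kept, 20649 in all. The brightest kept entry stood for a gene, giving 10797 genes named from the platform annotation, where 9343 identifiers are unnamed. All 12 arrays were fitted with a mean per tissue (lmFit, eBayes with trend). The fit was also run on simulated data, where few genes changed and noise was equal on every array. Neither holds here, so that run checks the code and not these results. There were 1344 identifiers with 2 entries differing over 2-fold, the brighter one over a raw signal of 400. For these the authors' value matched the first entry within 0.1 log2 for 95.8% and the second for 0%. Entries of an identifier were adjacent for 88.9% of repeated identifiers. The members and lists were chosen with earlier results of these data known. Named genes were the antagonists, up to 4 per pathway list and comparison by size, and 2 nearest in pattern, of which not all are printed. Promoters came from RefSeq, and symbols from the annotation.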

Additional observations from a re-analysis of the deposited data

Results flagged for a closer look

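Among the 4 arrays of a tissue, a value far from the others was looked for in 21 groups (7 detected antagonist entries in 3 tissues) with Dixon's test, which flags about 1 group in 20 by chance, and 4 were found. Fst was low on heart replicate 1 (13.33, against 13.39 to 13.40 on the others) and on kidney replicate 3 (11.10, against 11.24 on each other array), both within a narrow range. The dimmer Nbl1 probe was high on kidney replicate 4 (9.31, against 8.84 to 8.91). The bright Twsg1 entry was low on bone marrow replicate 1 (12.83, against 13.14 to 13.18).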

How the results depend on the processing

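Over 390 recomputed differences of the 6 detected antagonists, 379 kept direction and side of the threshold, 10 no longer passed and 1 changed sign. The 10 were the kidney minus bone marrow differences of Chrd (0.27 to 0.62 over all alternatives) and Fstl3 (0.30 to 0.44). The Twsg1 heart minus bone marrow difference, which did not pass, was -0.028 without bone marrow replicate 1, and -0.028 to 0.0896 over all fits without 1 array. Requiring at least 2-fold left 2 antagonists in kidney minus bone marrow and 3 in kidney minus heart, and over all genes 1512 of 6042, 913 of 4769 and 1168 of 5290, for heart and for kidney over bone marrow and then for kidney over heart. Leaving out 1 array at a time gave 5 to 5, 4 to 6 and 6 to 6 antagonists in those comparisons, and 6 to 6 by the F test. In those fits 5480 to 6099 of all genes passed in heart minus bone marrow and 4213 to 4996 in kidney minus bone marrow, of 10585 to 10706 tested. On all 12 arrays 49% of genes passed in kidney minus heart and 68.3% by the F test. Same-numbered arrays of different tissues correlated in their deviations at -0.203 to 0.133, above 0.1 for 1 of 12 pairs. No label says whether they share more than a number, and weak correlation cannot settle it. With a replicate block the counts of antagonists were 5, 6, 6 and, by the F test, 6, and over all genes 6009, 4737 and 5275. With the first entry of each identifier only, chosen after seeing the data, Twsg1 was not tested and 5, 5 and 5 antagonists passed. Over all genes 5543 of 10051 then passed in heart minus bone marrow and 4360 in kidney minus bone marrow. The chip as a block was not run, since the headers used here name no chip. Signal over background limits Nog, Chrdl1 and Bambi, and Chrd in bone marrow.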
